A study of Homo sapiens with 9 samples.

Results

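The proteasome genes described here are the protein-coding genes whose symbol starts with PSMA, PSMB, PSMC, PSMD, PSME, PSMF or PSMG and goes on with a number, found in the count table by their Ensembl identifier without its version. The rule picked 50 of the 60648 genes in the table and used no measured value. RNA was sequenced from 3 lines derived from HEK293, a human embryonic kidney line: T-REx, the parental line with no insertion; TC4-2A, which overexpresses a circular RNA of SMN1/2 exons; and TL4-2A, which overexpresses a linear RNA of the same exons. There were 3 libraries per line, 9 in all. Every line, T-REx included, received doxycycline (Dox) at 0.1 µg/mL for 96 h, so the Dox itself is shared by all groups. The sources used here give neither whether replicate libraries were grown as separate cultures nor whether TC4-2A and TL4-2A are each 1 clone. P-values therefore measure the spread between these libraries, which may be technical, and a difference between lines cannot be told apart from a difference between clones.

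The proteasome is the chamber in which cells cut up proteins that carry ubiquitin. Its core particle is a stack of rings: alpha subunits (PSMA) form the outer rings and gate the entry, beta subunits (PSMB) form the inner rings, and PSMB5, PSMB6 and PSMB7 carry the constitutive peptide-cutting sites. The regulatory particle that caps the core has a base, with ATPases (PSMC) that unfold the substrate, and a lid. Non-ATPase subunits (PSMD) lie in both, and those of the lid include the enzyme that removes the ubiquitin chain. Dedicated chaperones build these parts without staying in them, PSMG1 to PSMG4 for the core and PSMD5, PSMD9 and PSMD10 for the base. PSME proteins are alternative caps, PSMF1 is an inhibitor of the core, and interferon brings in the replacement cutting subunits PSMB8, PSMB9 and PSMB10. PSMC3IP, a recombination factor, and PSME3IP1, a partner of PSME3, meet the rule by their symbols but are not subunits of the proteasome.

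The libraries held between 16561680 and 21491977 counts assigned to genes, and the scaling factors lay between 0.9907 and 1.014. The HEK293-associated genes NEFL, NEFM, VIM, PAX2, KRT8, KRT18 and LIN28B were all detected and tested. Their summed level lay between 1104 and 1137 CPM (the count scaled to library size) in the T-REx libraries, between 864 and 896 in TC4-2A and between 877 and 894 in TL4-2A. In each transgenic line 5 of these 7 genes passed the test as lower than in T-REx, where 14.6% (TC4-2A) and 22.5% (TL4-2A) of all tested genes did. The 6 markers of other cells read here (PTPRC, CD3E, ALB, HBB, CDH5 and MYH7) did not reach the level needed for testing, and their summed level stayed between 0.0 and 0.37 CPM in every library. HBB was at 0 in all libraries. The part of these marker differences between the lines in the changes of the members was not tested. In bulk RNA such as this, fewer cells of a kind and less RNA per cell cannot be told apart.

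Of the 50 members, 45 had enough counts to be tested among the 19473 genes tested. The other 5 were PSMA8, PSMB8, PSMB10, PSMB11 and PSMD5. PSMA8, the alpha subunit of germ cells, had 1 count over all 9 libraries, and PSMB11, the cutting subunit of the thymus, had 2. PSMD5 had 6 counts over the T-REx libraries, 9 over TC4-2A and 4 over TL4-2A, so this base chaperone was close to the floor of 3 counts in every line.

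Among the 43 tested members that are proteasome parts, levels in T-REx per kilobase of the MANE Select transcript, the reference transcript of each gene, ranged from 1.07 CPM per kb for PSMB9 to 159 for PSMB4, with a median of 49.2. Per kilobase of all exons merged, the order differed, from 0.325 for PSMB9 to 85.9 for PSMC4, with a median of 25.7. The constitutive cutting subunits stood close together, at 64.5 for PSMB5, 85.6 for PSMB6 and 101 for PSMB7. The structural beta subunits ran from 42.5 (PSMB2) to 159 (PSMB4), and the ATPases from 20.4 (PSMC6) to 125 (PSMC4). The non-ATPase subunits lay between 32.3 (PSMD13) and 149 (PSMD8). The alpha subunits ran from 6.95 (PSMA2) to 119 (PSMA7), although the assembled ring holds equal numbers of each. The lowest of the alpha subunits share exons on the same strand with annotated readthrough genes, which cover 100% of the MANE Select exons of PSMA2, 81.4% of PSMA6 and 67.0% of PSMA1. The part of this overlap in the low levels was not tested. Among the chaperones, PSMD9 stood at 4.04 and PSMD10 at 41.1, and the core chaperones ran from 16.5 (PSMG3) to 56.6 (PSMG1).

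**Figure D1:**
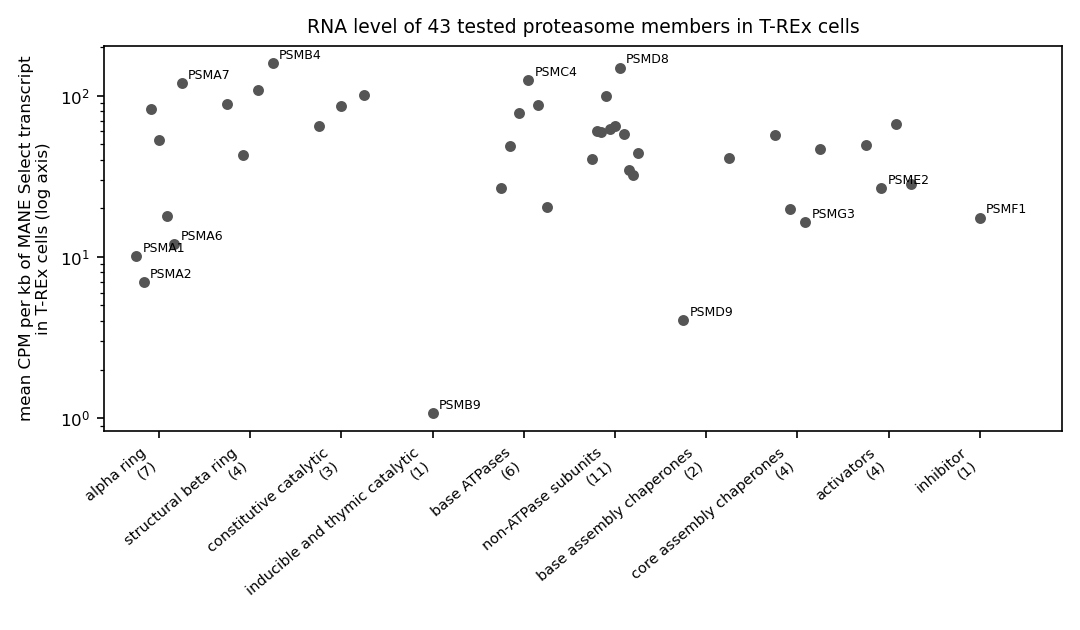
Levels of the 43 tested proteasome genes in T-REx cells, in CPM per kb of the MANE Select transcript on a log axis, grouped by role with the number of genes in each; points are the mean of 3 libraries, with no error drawn. PSMB4 was highest at 159 and PSMB9, an interferon-inducible subunit, lowest at 1.07.

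Many proteasome genes are known to answer to NFE2L1 and related factors through antioxidant response elements near their start sites. The promoters were therefore read for the core of that element, TGACNNNGC, on both strands, in RefSeq windows of 300 bases on GRCh38.p14 (250 before the start site and 50 after it). A window was at hand for 44 of the 50 members and not for PSMA7, PSMB1, PSMB6, PSMB7, PSMD4 and PSMG3. The letters occurred in 27.3% of the 55 windows of members, which belonged to 15 genes, against 13.3% of all 35116 windows and 14.2% of the 16351 windows of tested protein-coding genes. Shown here, to keep the print short, are the matches before the start site in members called against T-REx (PSMB3, PSMB9, PSMD3, PSMD5, PSMD12 and PSME4 hold such matches too), each with 10 bases on either side, in the direction of the gene, with the motif in capitals. In PSMC5 and in the upstream match of PSMD9 the motif reads on the other strand, so the capitals show its reverse complement. A gene can have several annotated start sites, each with its own window. The distances run from the 5′ end of the capitals to the start site of the window. They were 126 bases for PSMA4, 57 for PSMC5, 149 and 102 for PSMD9, 86 for PSME1, 175 for PSME2, 183 for PSMG1 and 39 for PSMG2.
PSMA4, chr15:78540650-78540678, + strand: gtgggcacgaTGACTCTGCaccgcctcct
PSMC5, chr17:63827654-63827682, + strand: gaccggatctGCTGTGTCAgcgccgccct
PSMD9, chr12:121888631-121888659, + strand: cgctactcctGCCGGGTCAccacaggcgc
PSMD9, chr12:121888678-121888706, + strand: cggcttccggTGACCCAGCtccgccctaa
PSME1, chr14:24136098-24136126, + strand: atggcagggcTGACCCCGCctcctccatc
PSME2, chr14:24146767-24146795, - strand: ccctggactgTGACCCAGCcagcaccgcc
PSMG1, chr21:39183616-39183644, - strand: gcccagggcaTGACAGCGCgggcgggcgg
PSMG2, chr18:12658689-12658717, + strand: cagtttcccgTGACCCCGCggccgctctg
The letters of other promoter motifs were also counted. CCGGAAG, the core bound by ETS factors, was in 32.7% of the members' windows, 10.3% of all windows and 15.8% of those of tested coding genes. CCAAT was in 43.6%, 34.6% and 34.7% and GGGCGG in 70.9%, 45% and 65.4%. A match is a run of letters and not a measured site.

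The lines were compared with the quasi-likelihood test of edgeR over all 9 libraries, and a gene is said to be called, or to have risen or fallen, where its Benjamini-Hochberg adjusted p over all genes tested was under 0.05. Fold changes are log2 differences of normalized counts, given with their standard error. In TC4-2A against T-REx cells, 12 of the 45 tested members were called (26.7%), 9 higher and 3 lower. Of all tested genes 28.8% were called there, 14.2% higher and 14.6% lower. In TL4-2A against T-REx cells, 20 members were called (44.4%), 8 higher and 12 lower, where 44.3% of all tested genes were called, 21.9% higher and 22.5% lower. The T-REx libraries are shared by these comparisons. In TC4-2A against TL4-2A cells, 19 members were called (42.2%), 16 higher in TC4-2A and 3 lower, where 35.3% of all tested genes were called, 17.6% higher and 17.8% lower. The share of members called was thus near that of all genes in both comparisons with T-REx. These shares of all genes are also those to set beside the counts of each functional group below. Without T-REx replicate 1, the first comparison called 7 members, 4 of them higher.

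The members moved by small amounts. Their median log2 fold change was 0.06 in TC4-2A and -0.02 in TL4-2A against T-REx, and 0.07 in TC4-2A against TL4-2A, with 0.0 for all genes in each. The median size of the change, up or down, was 0.08, 0.09 and 0.10 for members and 0.14, 0.20 and 0.17 for all genes in the same order. The members were not matched to other genes by expression level, so these sizes and the shares called are not compared at like levels. Members called with a change beyond 0.25 on the log2 scale numbered 2 in TC4-2A (all genes, 14.6%), 8 in TL4-2A (28.0%) and 7 between the transgenic lines (21.8%). Libraries of the compared lines did not overlap for 18 members (40%), 23 (51.1%) and 26 (57.8%), against 40.3%, 51.6% and 44.9% of all genes. In no comparison were all tested alpha subunits, all beta subunits, all ATPases or all non-ATPase subunits called in the same direction.

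**Figure D2:**
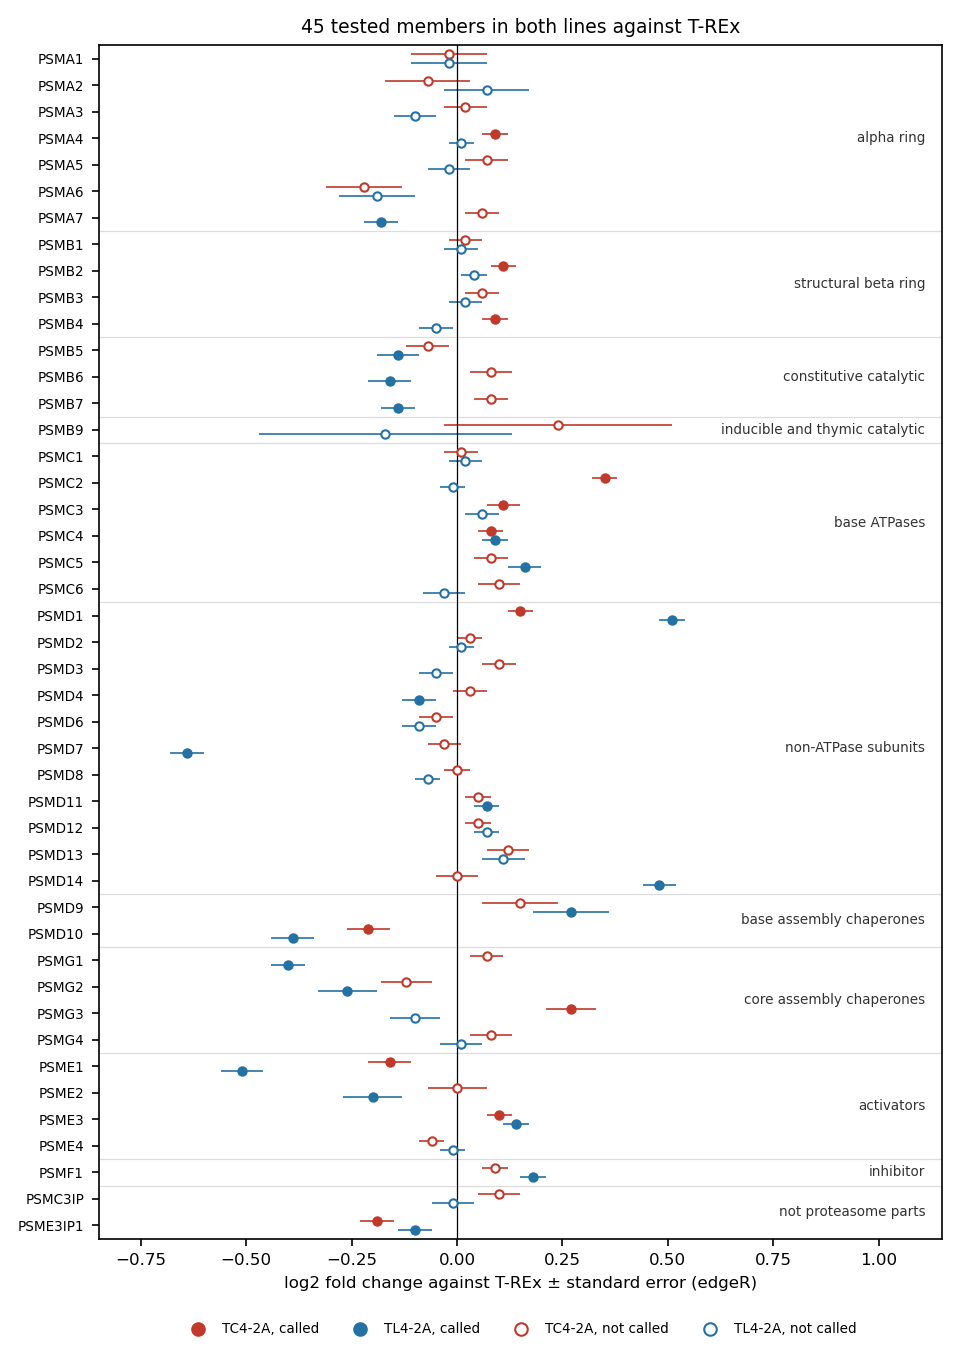
Log2 fold change of each tested member, grouped by role, for TC4-2A and for TL4-2A against T-REx; bars are the standard error from edgeR and filled points are called at an adjusted p under 0.05. Changes ran from -0.22 to 0.35 in TC4-2A and from -0.64 to 0.51 in TL4-2A.

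The 3 constitutive cutting subunits fell in TL4-2A and none was called in TC4-2A. PSMB7 (ENSG00000136930.13, chr9:124353465-124415444, trypsin-like site) stood at 104, 97.5 and 97.7 CPM in the T-REx libraries, against 109, 105 and 102 in TC4-2A and 88.3, 94.1 and 89.0 in TL4-2A. All its TL4-2A libraries lay below all others. PSMB7 fell by 0.14 ± 0.04 (SE) in TL4-2A (edgeR adjusted p = 0.00514) and measured 0.08 higher in TC4-2A (adjusted p = 0.138). PSMB6 (ENSG00000142507.10, chr17:4796144-4798502, caspase-like site) stood at 66.4, 76.2 and 68.9 CPM in T-REx, with 77.9, 71.4 and 75.1 in TC4-2A and 61.1, 67.3 and 61.3 in TL4-2A. The TL4-2A and T-REx libraries overlapped, since TL4-2A replicate 2 lay above T-REx replicate 1. The fall of PSMB6 in TL4-2A was -0.16 ± 0.05 (edgeR adjusted p = 0.0113), and it was lost without T-REx replicate 2 (0.168), TL4-2A replicate 1 (0.0596) or TL4-2A replicate 3 (0.0604).

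PSMB5 (ENSG00000100804.19, chr14:23016543-23035230), which carries the chymotrypsin-like site that proteasome inhibitor drugs bind, stood at 63.7, 69.3 and 69.1 CPM in T-REx, compared with 67.1, 61.6 and 63.9 in TC4-2A and 58.8, 63.1 and 61.8 in TL4-2A. The TL4-2A libraries lay below those of T-REx and overlapped those of TC4-2A. PSMB5 fell by 0.14 ± 0.05 in TL4-2A (edgeR adjusted p = 0.0202), a call lost without T-REx replicate 2 (0.0989), T-REx replicate 3 (0.0827) or TL4-2A replicate 1 (0.105). In TC4-2A its change was -0.07 (adjusted p = 0.295). Per kilobase of merged exons, the summed level of the cutting subunits was 148 ± 3.55 (SD, n = 3) in T-REx, against 152 ± 5.26 in TC4-2A and 134 ± 5.40 in TL4-2A, so that the TL4-2A mean was 0.904 of that of T-REx.

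The inducible cutting subunits were near the limit of detection. PSMB8 had 6, 9 and 5 counts in the T-REx libraries, with 0, 4 and 1 in TC4-2A and 3, 5 and 5 in TL4-2A. PSMB9 had 24, 26 and 15 counts in T-REx, compared with 28, 24 and 25 in TC4-2A and 14, 14 and 22 in TL4-2A, with changes of 0.24 ± 0.27 in TC4-2A (edgeR adjusted p = 0.554) and -0.17 ± 0.30 in TL4-2A (adjusted p = 0.68). A change of PSMB9 of that size was not detectable at this depth. PSMB10 had 8, 2 and 7 counts in T-REx, against 4, 5 and 4 in TC4-2A and 0 in each TL4-2A library. Over the libraries of a line together, PSMB10 had 17 counts in T-REx and 13 in TC4-2A. Scaled to library totals, these were 4.97 and 3.76 times a floor of 3 counts over the TL4-2A libraries together, without a test. The ratios leave out the counting error of the T-REx and TC4-2A counts, so they are not lower bounds. A readthrough gene (ENSG00000261884) covers 56.1% of its MANE Select exons on the same strand and summed to 114, 136 and 117 counts over the T-REx, TC4-2A and TL4-2A libraries. In T-REx, PSMB8, PSMB9 and PSMB10 made up 0.405% ± 0.084 (SD, n = 3) of the summed level of these and the constitutive cutting subunits. The share was 0.357% ± 0.0132 in TC4-2A and 0.273% ± 0.0836 in TL4-2A, and the thymic PSMB11 was left out of it. With the MANE Select length in place of merged exons the shares were 0.658%, 0.6% and 0.52%. TL4-2A replicate 3, at 0.369% by merged exons, lay within the range of the other lines.

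Of the 7 alpha subunits tested, 1 rose in TC4-2A and 1 fell in TL4-2A. PSMA7 (ENSG00000101182.15, chr20:62136733-62143440), the alpha subunit with the highest level per kilobase, stood at 111, 114 and 118 CPM in T-REx, compared with 122, 123 and 112 in TC4-2A and 99.4, 107 and 97.4 in TL4-2A. The TL4-2A libraries lay below all others. PSMA7 fell by 0.18 ± 0.04 in TL4-2A (edgeR adjusted p = 0.000496) and measured 0.06 higher in TC4-2A (adjusted p = 0.315). PSMA4 rose by 0.09 in TC4-2A (adjusted p = 0.0236), a call lost with DESeq2 (0.0556) and without T-REx replicate 1 (0.265), TC4-2A replicate 1 (0.114) or TC4-2A replicate 3 (0.0501). PSMA6 measured -0.22 in TC4-2A (adjusted p = 0.067) and -0.19 in TL4-2A (0.0953), which did not pass, apart from TC4-2A without T-REx replicate 2 (0.0467). PSMA1, PSMA2, PSMA3 and PSMA5 were not called against T-REx.

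The structural beta subunits showed 2 of 4 higher in TC4-2A and none called in TL4-2A. PSMB2 (ENSG00000126067.12, chr1:35599541-35641526) stood at 180.3, 189.9 and 194 CPM in T-REx, against 201, 204 and 204 in TC4-2A and 194, 194 and 192 in TL4-2A. It rose by 0.11 ± 0.03 in TC4-2A (edgeR adjusted p = 0.00374), which was lost without T-REx replicate 1 (0.0567), the lowest library. PSMB4 rose by 0.09 in TC4-2A (adjusted p = 0.0446). That call was lost in 11 of 15 other settings, with DESeq2 (0.0974) and without any T-REx library (0.0742 to 0.133), TC4-2A replicate 1 (0.348) or replicate 3 (0.0758), or TL4-2A replicate 2 (0.0585) or replicate 3 (0.0564).

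Of the 6 base ATPases, 3 rose in TC4-2A and 2 in TL4-2A, and none fell. PSMC2 (ENSG00000161057.13, chr7:103328570-103370346) was the member with the largest change in TC4-2A. It stood at 131, 132 and 135 CPM in T-REx, with 173, 164 and 168 in TC4-2A and 128, 135 and 133 in TL4-2A. The TC4-2A libraries lay far above the others, while T-REx and TL4-2A overlapped. PSMC2 rose by 0.35 ± 0.03 in TC4-2A (edgeR adjusted p = 7.37e-11) and measured -0.01 in TL4-2A (0.878). PSMC3 (ENSG00000165916.9, chr11:47418769-47426473) stood at 119, 121 and 119.8 CPM in T-REx, compared with 130.1, 125 and 133 in TC4-2A and 124, 129 and 122 in TL4-2A. All libraries of the transgenic lines lay above those of T-REx. PSMC3 rose in TC4-2A (0.11 ± 0.04, edgeR adjusted p = 0.0189), and the call was lost without T-REx replicate 1 (0.057), 2 (0.0504) or 3 (0.0581) or TC4-2A replicate 1 (0.0525) or 3 (0.117). Its change in TL4-2A was 0.06 (0.172).

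PSMC5 (ENSG00000087191.13, chr17:63827152-63832026) stood at 115, 120.5 and 114 CPM in T-REx, against 126, 118 and 125 in TC4-2A and 128, 133 and 129.5 in TL4-2A. Only the TL4-2A libraries lay clear of T-REx, and PSMC5 rose there by 0.16 ± 0.04 (edgeR adjusted p = 0.00039), against 0.08 in TC4-2A (0.0935, and 0.0462 without TC4-2A replicate 2). FTSJ3, on the opposite strand, overlaps 13.7% of the MANE Select exons of PSMC5 and rose by 0.14 and 0.25. The strand setting of the counting is not given, so reads of such a pair may not be separated. PSMC4 rose by 0.08 in TC4-2A (adjusted p = 0.0438) and by 0.09 in TL4-2A (0.0174), the former lost in 11 and the latter in 3 of 15 other settings. Both calls were lost without T-REx replicate 1 (0.293 and 0.169) and without TL4-2A replicate 2 (0.056 and 0.0787). The TC4-2A call was also lost with DESeq2 (0.0856) and without T-REx replicate 2 (0.059), TC4-2A replicate 1 (0.143), 2 (0.0734) or 3 (0.107), or TL4-2A replicate 3 (0.0588). PSMC1, of which NRDE2 on the other strand overlaps 83.2%, measured 0.01 and 0.02 while NRDE2 rose by 0.17 and 0.38.

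The regulatory particle's non-ATPase subunits held the widest changes, and they went in opposite directions in TL4-2A. Of 11 tested, 3 rose and 2 fell in TL4-2A (45.5% called), and 1 rose in TC4-2A (9.09%). Of all tested genes, 44.3% and 28.8% were called there, so the share in TL4-2A was near that of all genes. PSMD7 (ENSG00000103035.11, chr16:74296814-74306288), a lid subunit, stood at 103, 105 and 109 CPM in T-REx, with 108, 101 and 102 in TC4-2A and 65.7, 68.0 and 69.2 in TL4-2A. Every TL4-2A library lay far below every other library, while T-REx and TC4-2A overlapped. PSMD7 fell by 0.64 ± 0.04 in TL4-2A (edgeR adjusted p = 1.85e-15), the largest change of any member, and measured -0.03 in TC4-2A (0.666). A noncoding gene on the opposite strand (ENSG00000259972) overlaps 51.6% of its MANE Select exons. It also fell in TL4-2A, by 0.19 (adjusted p = 0.0346), and rose by 0.21 in TC4-2A (0.0212).

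PSMD14 (ENSG00000115233.12, chr2:161308425-161411717), the lid enzyme that cuts ubiquitin off the substrate and pairs with PSMD7, moved the other way. It stood at 67.3, 65.0 and 73.4 CPM in T-REx, compared with 66.6, 70.5 and 68.5 in TC4-2A and 93.0, 96.8 and 96.3 in TL4-2A. It rose by 0.48 ± 0.04 in TL4-2A (edgeR adjusted p = 3.93e-11) and measured 0.00 in TC4-2A (0.999). Per kilobase of the MANE Select transcript, the ratio of PSMD14 to PSMD7 RNA was 0.683, 0.644 and 0.704 in T-REx, against 0.643, 0.728 and 0.7 in TC4-2A and 1.47, 1.48 and 1.45 in TL4-2A. Per kilobase of merged exons the mean ratio was 0.24 in T-REx, 0.245 for TC4-2A and 0.521 for TL4-2A, so its size depended on the length used. With either length, all libraries of TL4-2A lay above all others.

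PSMD1 (ENSG00000173692.14, chr2:231056845-231173116), a large scaffold of the base, was the member that rose in TC4-2A and also rose most in TL4-2A. It stood at 134, 135 and 137 CPM in T-REx, with 151, 152 and 146 in TC4-2A and 190, 191 and 197 in TL4-2A, with no overlap between any of the lines. PSMD1 rose by 0.15 ± 0.03 in TC4-2A (edgeR adjusted p = 0.000301) and by 0.51 ± 0.03 in TL4-2A (3.59e-16). PSMD4, a ubiquitin receptor, fell by 0.09 in TL4-2A (adjusted p = 0.0409), which was lost with DESeq2 (0.0995) and without T-REx replicate 1 (0.175) or 2 (0.0674) or TL4-2A replicate 1 (0.0602) or 3 (0.203). PSMD11, a lid subunit, was barely called in TL4-2A (0.07, adjusted p = 0.0496), and 13 of 15 other settings lost the call, DESeq2 among them (0.0953) and each library left out except T-REx replicate 2 (0.0513 to 0.211). PSMD2, PSMD3, PSMD6, PSMD8, PSMD12 and PSMD13 were not called against T-REx.

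**Figure D3:**
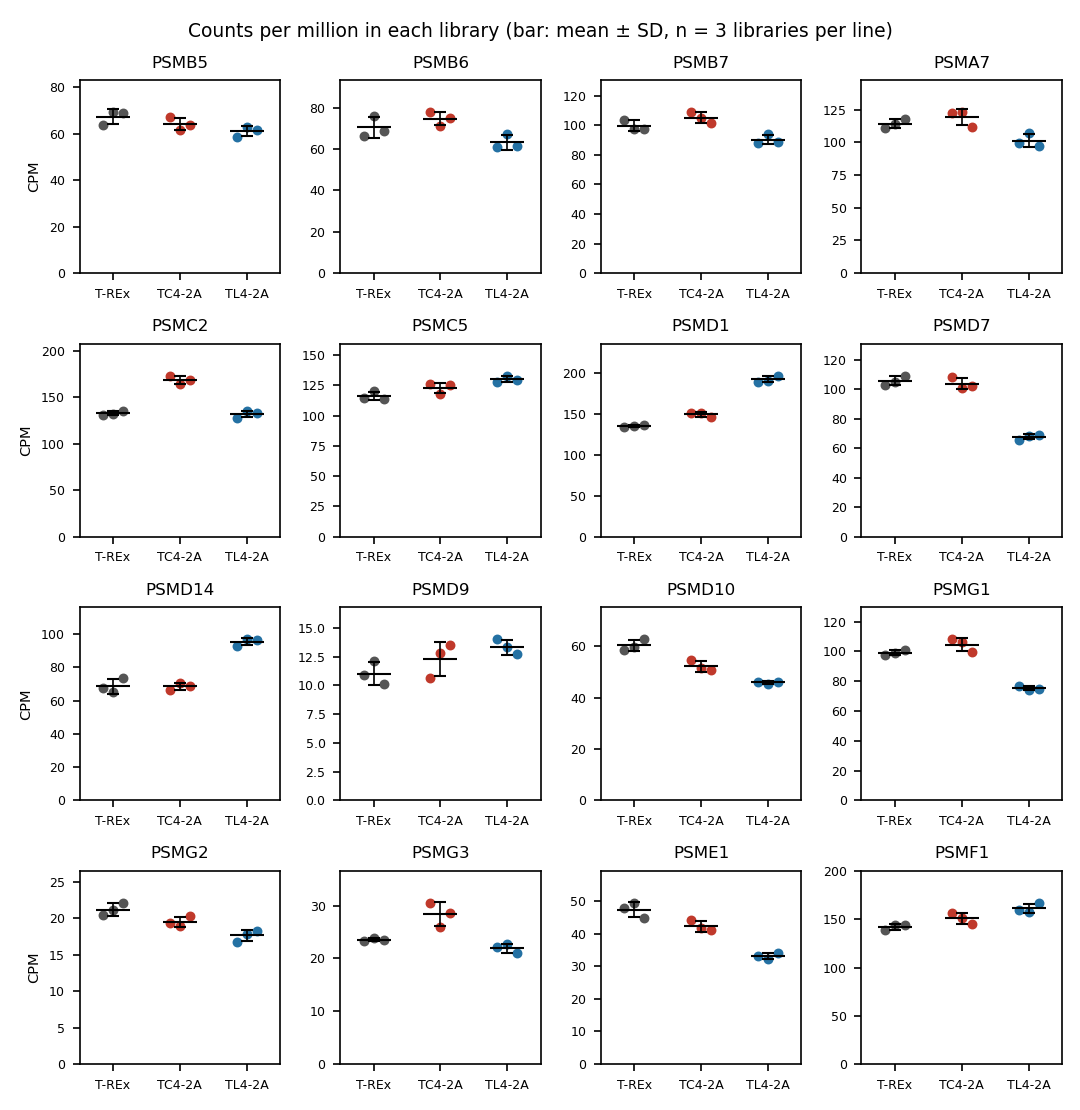
CPM in each of the 9 libraries for the constitutive cutting subunits and for other members with called changes, on axes that start at 0; points are libraries, coloured by line, and bars the mean ± SD of 3 libraries. PSMD7 lay between 65.7 and 69.2 in TL4-2A and at 101 or more in the other lines, while PSMC2 lay at 164 or more only in TC4-2A.

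Among the base chaperones, PSMD10 fell in both transgenic lines. PSMD10 (ENSG00000101843.19, chrX:108084207-108091549), also known as gankyrin, stood at 58.6, 59.9 and 62.7 CPM in T-REx, compared with 54.5, 51.4 and 50.6 in TC4-2A and 46.2, 45.4 and 46.2 in TL4-2A. No libraries of different lines overlapped. It fell by 0.21 ± 0.05 in TC4-2A (edgeR adjusted p = 0.000542) and by 0.39 ± 0.05 in TL4-2A (1.41e-08). PSMD9 (ENSG00000110801.14, chr12:121888732-121918297) stood at 10.9, 12.1 and 10.1 CPM in T-REx, against 10.6, 12.8 and 13.5 in TC4-2A and 14, 13.3 and 12.7 in TL4-2A. It rose by 0.27 ± 0.09 in TL4-2A (edgeR adjusted p = 0.0172), and the call was lost with DESeq2 (0.0734) and without T-REx replicate 3 (0.105) or TL4-2A replicate 1 (0.0765). Its change in TC4-2A was 0.15 (0.226). Per kilobase of merged exons, the summed level of the base chaperones was 26.5 ± 0.811 (SD, n = 3) in T-REx, with 23.3 ± 0.699 in TC4-2A and 20.8 ± 0.231 in TL4-2A.

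The core chaperones work as pairs, PSMG1 with PSMG2 and PSMG3 with PSMG4. Both members of the first pair fell in TL4-2A. PSMG1 (ENSG00000183527.12, chr21:39174769-39183488) stood at 97.3, 99.0 and 101 CPM in T-REx, compared with 108, 106 and 99.5 in TC4-2A and 76.7, 74.2 and 75.0 in TL4-2A. It fell by 0.40 ± 0.04 in TL4-2A (edgeR adjusted p = 2.54e-10) and measured 0.07 in TC4-2A (0.165). PSMG2 (ENSG00000128789.21, chr18:12658043-12728945) stood at 20.4, 21.1 and 22.1 CPM in T-REx, against 19.3, 18.9 and 20.3 in TC4-2A and 16.8, 17.9 and 18.3 in TL4-2A. All 3 lines were apart, with TL4-2A lowest, and the fall of 0.26 ± 0.07 in TL4-2A was called (edgeR adjusted p = 0.00117) while that of TC4-2A, -0.12, was not (0.143). The promoters of PSMG1 and PSMG2 both hold the TGACNNNGC letters printed above.

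In the second pair, PSMG3 rose in TC4-2A. PSMG3 (ENSG00000157778.9, chr7:1567332-1571005) stood at 23.3, 23.8 and 23.5 CPM in T-REx, with 30.5, 26.0 and 28.6 in TC4-2A and 22.1, 22.7 and 21.0 in TL4-2A. The TC4-2A libraries lay above and the TL4-2A libraries below those of T-REx. The rise in TC4-2A was 0.27 ± 0.06 (edgeR adjusted p = 0.000358), and the change of -0.10 in TL4-2A did not pass (0.186). PSMG4 measured 0.08 in TC4-2A (0.187) and 0.01 in TL4-2A (0.945). The summed level of the core chaperones was 63.3 ± 1.03 CPM per kb of merged exons (SD, n = 3) in T-REx, compared with 68.2 ± 2.39 in TC4-2A and 51.0 ± 0.661 in TL4-2A, a ratio of 1.08 and 0.807 to T-REx.

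Of the alternative caps, PSME1 fell in both transgenic lines, PSME2 fell in TL4-2A and PSME3 rose in both. PSME1 and PSME2 form 1 interferon-inducible ring together, while PSME3 forms a nuclear ring of its own. PSME1 (ENSG00000092010.15, chr14:24136163-24138967) stood at 48.0, 49.5 and 45 CPM in T-REx, against 44.3, 41.7 and 41.1 in TC4-2A and 33.3, 32.4 and 34.1 in TL4-2A, with the lines apart. PSME1 fell by 0.51 ± 0.05 in TL4-2A (edgeR adjusted p = 1.62e-10) and by 0.16 ± 0.05 in TC4-2A (0.00933), the latter lost without T-REx replicate 2 (0.0555). PSME2 (ENSG00000100911.16, chr14:24143362-24147570), its neighbour, fell by 0.20 ± 0.07 in TL4-2A (edgeR adjusted p = 0.0155), which was lost with DESeq2 (0.0886) and without T-REx replicate 3 (0.145) or TL4-2A replicate 2 (0.124). It stood at 21.0, 19.2 and 23.0 CPM in T-REx, with 21.3, 20.8 and 21.4 in TC4-2A and 19.2, 17.0 and 18.7 in TL4-2A, and measured 0.00 in TC4-2A (0.97). PSME3 rose by 0.10 in TC4-2A (0.00449) and 0.14 in TL4-2A (8.67e-05). PSME4, which forms a cap by itself, was not called.

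The inhibitor PSMF1 (ENSG00000125818.18, chr20:1113240-1189415) stood at 139, 144 and 144 CPM in T-REx, with 157, 151 and 145 in TC4-2A and 160.2, 158 and 167 in TL4-2A. The libraries of T-REx lay below all others, and PSMF1 rose by 0.18 ± 0.03 in TL4-2A (edgeR adjusted p = 2.43e-05), with 0.09 in TC4-2A (0.0525, and 0.0213 without TC4-2A replicate 3). Outside the proteasome, PSME3IP1 (ENSG00000172775.17, chr16:57152466-57186116) stood at 121, 135 and 132 CPM in T-REx, compared with 119, 111 and 110.3 in TC4-2A and 119, 122 and 122 in TL4-2A. It fell by 0.19 in TC4-2A (edgeR adjusted p = 0.000171) and by 0.10 in TL4-2A (0.0345). The TL4-2A call was lost with DESeq2 (0.0858) and without T-REx replicate 2 (0.252) or 3 (0.117) or TL4-2A replicate 1 (0.105), 2 (0.0621) or 3 (0.0635). PSMC3IP was not called.

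The lines carrying the circular and the linear RNA were then set against each other, with no T-REx library in the contrast. The authors also detected linear precursor transcripts of the same exons in TC4-2A. The contrast is therefore between lines and not of circular against linear RNA alone. Of the 19 members called, 16 were higher in TC4-2A, among them 3 alpha subunits, 2 cutting subunits, 2 ATPases, 2 core chaperones and 2 caps. The largest were PSMD7 (0.61 ± 0.04, edgeR adjusted p = 5.64e-15), PSMG1 (0.47 ± 0.04, 3.44e-12), PSMG3 (0.37 ± 0.06, 3.92e-06), PSMC2 (0.35 ± 0.03, 2.9e-11) and PSME1 (0.35 ± 0.05, 9.25e-07). PSMB6 was higher by 0.24 ± 0.05 (0.000223), PSMA7 by 0.23 ± 0.04 (1.34e-05) and PSMB7 by 0.22 ± 0.04 (3.64e-05), and for each of these the libraries of the transgenic lines did not overlap. PSMD14 (-0.48 ± 0.04, 3.89e-11), PSMD1 (-0.36 ± 0.03, 2.78e-12) and PSMF1 (-0.10 ± 0.03, 0.0192) were lower in TC4-2A. The PSMF1 call was lost with no filter on low counts (0.0892) and without TC4-2A replicate 2 (0.05) or 3 (0.153) or TL4-2A replicate 3 (0.131).

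Smaller differences in the same direction were PSMD10 (0.18, edgeR adjusted p = 0.00267), PSMB4 (0.14, 0.00146) and PSMD3 (0.14, 0.0033), which held in each of the 15 other settings. PSME2 (0.21, 0.0165) was lost with DESeq2 (0.0958) and without TL4-2A replicate 2 (0.135), and PSMD4 (0.12, 0.00962) without TC4-2A replicate 1 (0.118) or TL4-2A replicate 3 (0.0839). PSMC6 (0.14, 0.0366) was lost with DESeq2 (0.116) and without TC4-2A replicate 2 (0.0768) or 3 (0.186) or TL4-2A replicate 1 (0.0559) or 2 (0.0879). PSMA3 (0.13, 0.0287) was lost with DESeq2 (0.0664) and without TC4-2A replicate 2 (0.0667) or 3 (0.0563) or TL4-2A replicate 1 (0.115) or 3 (0.0528). PSMA4 (0.09, 0.0345) was lost with DESeq2 (0.085) and without TC4-2A replicate 1 (0.145) or 3 (0.0611) or TL4-2A replicate 1 (0.164) or 3 (0.0588). Members called in none of the 3 comparisons numbered 16: PSMA1, PSMA2, PSMA5, PSMA6, PSMB1, PSMB3, PSMB9, PSMC1, PSMC3IP, PSMD2, PSMD6, PSMD8, PSMD12, PSMD13, PSME4 and PSMG4.

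The members lie on many chromosomes, and the genes around each were read beside it: the 10 nearest tested genes on either side. Around PSMC2, which rose by 0.35 in TC4-2A, the 20 neighbours spanned 2.81 Mb and had a median change of 0.33, with 12 called higher and 0 lower. In TL4-2A, where PSMC2 measured -0.01, their median was -0.03. Around PSMD14 the median in TL4-2A was 0.56, with 13 of 20 called higher and 1 lower, and around PSMD1 it was 0.34, with 10 higher and 0 lower. Around PSMD7 the median in TL4-2A was -0.42, with 13 called lower and 1 higher. For these 4 members, the change of the surrounding genes had the same direction as that of the member. Of all tested genes, 14.2% were called higher in TC4-2A, and 21.9% higher and 22.5% lower in TL4-2A. The same shares stand beside the counts of neighbours in the next paragraph.

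Some other members differed from their surroundings, while PSMD10 in TC4-2A and PSMB5 in TL4-2A had changes near those of theirs. Around PSMG1 the median in TL4-2A was -0.13 where PSMG1 fell by 0.40. Around PSME1 it was -0.18 where PSME1 fell by 0.51, PSME2 being 1 of these neighbours. Around PSMD10 the median was -0.23 in TC4-2A, near that of PSMD10 itself, and -0.06 in TL4-2A, where PSMD10 fell by 0.39. Around PSMA7 it was 0.16 in TL4-2A, with 9 called higher and 1 lower, while PSMA7 fell. Around PSMB7 it was 0.05 and around PSMB6 0.00, while around PSMB5 it was -0.20, with 9 called lower and 1 higher. Over the 45 tested members, the sign of the member and of its neighbours' median was the same for 28 in TC4-2A and for 27 in TL4-2A against T-REx. The part of these surroundings in the changes of the members was not tested.

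**Figure D4:**
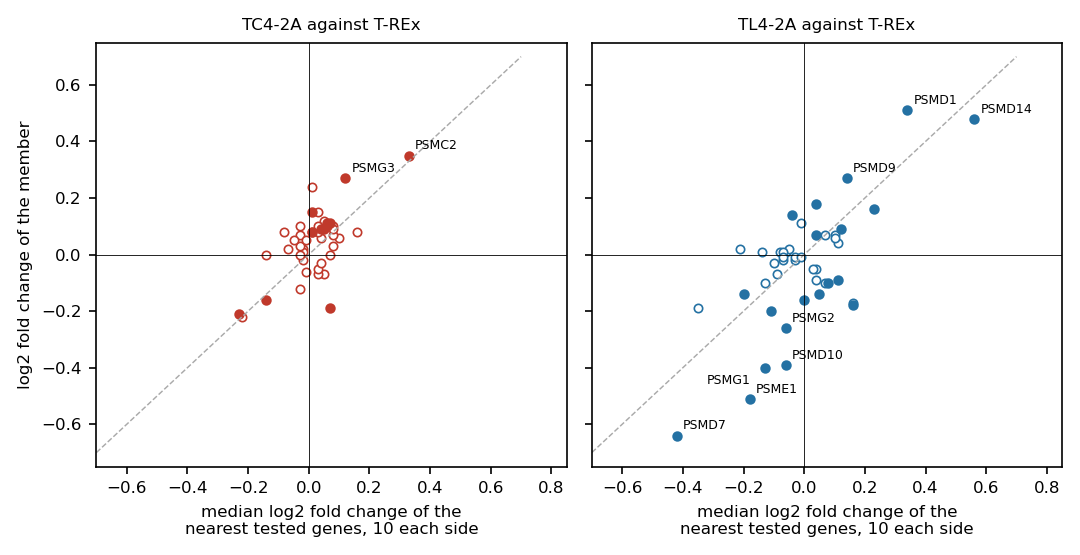
Log2 fold change of each tested member (vertical) against the median of the nearest tested genes on either side of it (horizontal), for TC4-2A and for TL4-2A against T-REx; filled points are called and the dashed line marks equal values. PSMC2 lay close to the line at 0.35 against 0.33 in TC4-2A, and PSMG1, PSME1 and PSMD10 lay below it in TL4-2A.

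Partners of the proteasome outside these symbols were read as a list of 11 genes, all tested. In TC4-2A 3 rose and 3 fell (median -0.01), and in TL4-2A 2 rose and 5 fell (median -0.12). Of all genes tested, 28.8% were called in TC4-2A and 44.3% in TL4-2A against T-REx. These shares are also those to set beside the counts of the lists that follow. UBE3C, a ubiquitin ligase that works at the proteasome, stood at 193 CPM in T-REx, against 262 in TC4-2A and 227 in TL4-2A (means) and rose by 0.44 (edgeR adjusted p = 3.87e-15) and 0.23 (2.64e-08). SEM1, a small lid subunit, rose by 0.30 in TC4-2A (4.97e-07) and measured -0.01 in TL4-2A (0.851). UBE3C (chr7:157138926-157269370) and SEM1 (chr7:96481626-96709880) lie on chromosome 7, as does PSMC2, whose surroundings rose in TC4-2A. The paper reports that genes higher in the circular RNA line were enriched in several regions of this chromosome. The genes around UBE3C and SEM1 were not read, and their part in the rises of these partners was not tested. USP14, a proteasome-bound enzyme that trims ubiquitin, fell by 0.20 in TC4-2A (1.16e-05) and 0.24 in TL4-2A (2.13e-07).

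Regulators of proteasome genes were read as a list of 6, all tested. Of these, 1 rose and 1 fell in TC4-2A (median -0.01), and 1 rose and 2 fell in TL4-2A (median -0.06). NFE2L1, the factor that raises proteasome genes when proteasome activity drops, stood at 243, 237 and 238 CPM in T-REx, with 234, 238 and 229 in TC4-2A and 207 in each TL4-2A library. It fell by 0.21 in TL4-2A (edgeR adjusted p = 7.83e-08). DDI2, the protease that cuts NFE2L1 into its active form, stood at 121, 118 and 124 CPM in T-REx, compared with 115, 125 and 119 in TC4-2A and 86.3, 87.7 and 84.7 in TL4-2A. It fell by 0.49 in TL4-2A (4.05e-13) and measured -0.01 in TC4-2A (0.832). NFE2L2, the related factor of the antioxidant response, rose from 50.5, 49.0 and 50.4 CPM in T-REx to 82.6, 81.4 and 80.1 in TL4-2A (0.70, 2.93e-15). In TC4-2A it rose by 0.14 (0.0247), a call lost with DESeq2 (0.0547) and without T-REx replicate 2 (0.102) or TC4-2A replicate 2 (0.161). NFE2L2 lies on chromosome 2 (chr2:177218667-177392756), as do PSMD14 and PSMD1, whose surroundings rose in TL4-2A. The genes around NFE2L2 were not read, and their part in its rise was not tested.

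The TGACNNNGC letters lay upstream of a start site in 13 members, of which 12 were tested and PSMD5 was not. In TL4-2A against T-REx, PSMG1, PSMG2, PSME1 and PSME2 fell and PSMC5 and PSMD9 rose. The other 6 were not called: PSMA4 measured 0.01, PSMB3 0.02, PSMB9 -0.17, PSMD3 -0.05, PSMD12 0.07 and PSME4 -0.01. In PSMD1 and PSMC4 the letters lay only after the start site, and both rose in TL4-2A (0.51 and 0.09). In that comparison 44.3% of all tested genes were called, 21.9% higher and 22.5% lower. The part of these letters in the changes was not tested.

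Among the ubiquitin genes and shuttles, no called change against T-REx was beyond 0.21. Of 6 genes for ubiquitin and its activation, 1 rose and 1 fell in TC4-2A and 2 rose and 1 fell in TL4-2A, with medians of -0.01 in both. UBB, a gene of tandem ubiquitin copies, rose by 0.21 in TC4-2A (edgeR adjusted p = 1.07e-06) and by 0.09 in TL4-2A (0.0165), the latter lost without T-REx replicate 3 (0.125) or TL4-2A replicate 2 (0.102). RPS27A, which encodes ubiquitin fused to a ribosomal protein, fell by 0.13 in both (0.0396 and 0.0218), and both calls were lost with DESeq2 (0.42 and 0.331). They were also lost without T-REx replicate 2 (0.149 and 0.0916) or 3 (0.368 and 0.245), in TC4-2A without its replicate 1 (0.0543) or 2 (0.151) and in TL4-2A without its replicate 1 (0.267) or 3 (0.06). UBA1, the main ubiquitin-activating enzyme, rose by 0.08 in TL4-2A (0.017), lost with no filter on low counts (0.1) and without T-REx replicate 1 (0.0597) or TL4-2A replicate 1 (0.0698).

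Of the shuttles that carry substrates to the proteasome, 5 of 6 were tested, DDI1 being at 0 in all libraries. In TC4-2A 1 rose and 2 fell (median 0.03), and in TL4-2A 2 fell (median -0.07). UBQLN2 fell by 0.18 in TC4-2A (edgeR adjusted p = 0.000774) and by 0.19 in TL4-2A (0.000235). UBQLN1 fell by 0.09 (0.0229) and 0.10 (0.0114), the former lost with DESeq2 (0.0517), with no filter on low counts (0.0645) and without T-REx replicate 2 (0.0709) or 3 (0.074) or TC4-2A replicate 2 (0.164). UBQLN4 rose by 0.12 in TC4-2A (0.0143), lost without T-REx replicate 3 (0.0736) or TC4-2A replicate 2 (0.108), and measured -0.07 in TL4-2A (0.124).

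Because PSMB8, PSMB9, PSMB10, PSME1 and PSME2 are interferon-inducible, 7 genes of interferon signalling and antigen processing (TAP1, TAP2, TAPBP, ERAP1, B2M, IRF1 and NLRC5) were read beside them. In TC4-2A 1 rose and 2 fell (median -0.04), and in TL4-2A 0 rose and 3 fell (median -0.08). B2M, the light chain of class I molecules, fell by 0.14 in TC4-2A (edgeR adjusted p = 0.000902) and by 0.21 in TL4-2A (2.04e-06). ERAP1, which trims peptides, fell by 0.36 (1.6e-06) and 0.32 (6.44e-06).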

How the data were processed

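RNA was measured in 9 libraries, 3 for each line, from total RNA depleted of ribosomal RNA and sequenced as directional paired-end libraries. The authors deposited raw counts per gene, made by mapping to GRCh38 with HISAT2 and assigning reads to Gencode v33 with featureCounts (Subread). The sources used here give no tool versions, no strand setting and no rule for multi-mapped reads. The authors also deposited fold changes, standard errors and p-values from DESeq2 for each transgenic line against T-REx, which were not used.

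Of the count table, 60648 lines were used and 3 damaged lines left out. Genes were kept with filterByExpr, scaled by TMM and tested with the quasi-likelihood test of edgeR 4.0.16 (R 4.3.3) over all 9 libraries, two-sided, with Benjamini-Hochberg adjustment over 19473 genes and a threshold of 0.05. The fit was tested on simulated data. CPM used the same scaling, and lengths, positions and exons were read from Gencode v44, in which 60462 identifiers were found. Libraries held 16561680 to 21491977 counts. Standard errors came from the edgeR fit and include the spread between libraries, and SDs are over 3 libraries. The floor of 3 counts covers counting error only. Alternatives were size factors of the RLE method, DESeq2 1.42.0, no filter, a filter of 10 counts in every library, fits of the 2 compared lines alone, a replicate block, and each library left out. The MANE Select length was added as an alternative after the data were seen. Values per library are given for the cutting subunits and for the 5 members with the largest called rise and fall in each comparison (averaging at least 1 CPM), other called members by fold change, and 3 genes of each related list by smallest p (ERAP1 and B2M alone for the interferon list). From each of 2 lists, 1 gene is not reported here, and the list's counts leave it out. Values per library of PSMA7, PSME2, NFE2L1, NFE2L2 and DDI2, and the ratios of partner subunits, were added after their values were seen. The members and lists were chosen with earlier results of these data known.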

Additional observations from a re-analysis of the deposited data

Results flagged for a closer look

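For 19 members the change against T-REx differed between TC4-2A and TL4-2A by the test of the difference itself, which is the direct contrast of these lines in edgeR. The values are log2 differences, TC4-2A minus TL4-2A. Among core subunits they were 0.13 for PSMA3, 0.09 for PSMA4, 0.23 for PSMA7, 0.14 for PSMB4, 0.24 for PSMB6 and 0.22 for PSMB7. Among subunits of the regulatory particle they were 0.35 for PSMC2, 0.14 for PSMC6, -0.36 for PSMD1, 0.14 for PSMD3, 0.12 for PSMD4, 0.61 for PSMD7 and -0.48 for PSMD14. Among chaperones they were 0.18 for PSMD10, 0.47 for PSMG1 and 0.37 for PSMG3. Among caps and the inhibitor they were 0.35 for PSME1, 0.21 for PSME2 and -0.10 for PSMF1. Of all genes tested 35.3% were called in this contrast.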

How the results depend on the processing

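No called change of a member reversed in any of the 15 other settings. Calls held in each of those settings for 6 of 12 members in TC4-2A (PSMC2, PSMD1, PSMD10, PSMG3, PSME3 and PSME3IP1), for 12 of 20 in TL4-2A (PSMA7, PSMB7, PSMC5, PSMD1, PSMD7, PSMD14, PSMD10, PSMG1, PSMG2, PSME1, PSME3 and PSMF1) and for 13 of 19 between the transgenic lines. Members not called against T-REx that passed in some of these settings were PSMA6, PSMC5, PSMC6, PSMD3, PSMD13 and PSMF1 in TC4-2A and PSMA3, PSMD8 and PSMD13 in TL4-2A. With 1 library left out, the members called numbered 7 to 12 in TC4-2A (4 to 9 higher, 3 lower), 16 to 21 in TL4-2A (6 to 8 higher, 8 to 14 lower) and 15 to 19 between the lines (13 to 16 higher, 2 to 4 lower). The lowest counts in TC4-2A, 7 called and 4 higher, came without T-REx replicate 1, and the cause was not tested. DESeq2 called 9, 15 and 15 members. With a replicate block the counts were 11, 20 and 19. No shared deviation of libraries with the same number was seen (r between -0.029 and 0.03 across genes). That does not exclude that they were paired. Summed levels depended on the length used: with the MANE Select length, added after the data were seen, the ratio of TL4-2A to T-REx was 0.871 in place of 0.807 for the core chaperones and 0.999 in place of 0.969 for the non-ATPase subunits. The share of inducible subunits then became 0.658% in T-REx, against 0.6% in TC4-2A and 0.52% in TL4-2A, and 0.295% in TC4-2A with the longest transcript. Depth limited PSMA8, PSMB8, PSMB10, PSMB11 and PSMD5, which had too few counts for a test.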

Other observations

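The annotation also held 51 loci with proteasome symbols that are not protein-coding, 44 of them pseudogenes. Of the pseudogenes 21 had no count in any library, the highest single value was 32 counts, and their sum was 42 to 64 counts per library, so that few of the assigned reads went to these copies. Reads shared by a gene and its pseudogene copy may have been dropped or kept in the counting, since that setting is not given. Ratios of partner subunits depended on the length used. Per kilobase of the MANE Select transcript, PSMG1 stood to PSMG2 at 2.86 ± 0.057 (SD, n = 3) in T-REx, against 3.27 ± 0.25 in TC4-2A and 2.60 ± 0.156 in TL4-2A, and per kilobase of merged exons at 27.2, 31.2 and 24.8. PSMG3 stood to PSMG4 at 0.352 ± 0.0106, 0.401 ± 0.0321 and 0.327 ± 0.0118 with the former length, and at 3.38, 3.85 and 3.14 with the latter, so which of them was higher turned over. PSME1 stood to PSME2 at 1.87 ± 0.255, 1.65 ± 0.0647 and 1.5 ± 0.0724 with the former, and at 4.58, 4.05 and 3.67 with the latter.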
